A study of Sus scrofa with 10 samples.

Results

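The mitochondrial respiratory chain and ATP synthase were followed through 65 nuclear genes in porcine fetal fibroblasts sorted on the surface carbohydrate SSEA-1. The genes were those whose probe sets carried a single symbol beginning with NDUF (complex I), SDHA to SDHD (complex II), UQCR (complex III), COX and a digit (complex IV) or ATP5 (ATP synthase, complex V). They are 65 of the 6765 genes that the array's annotation named by a single symbol, and each was read from the brightest of its probe sets over all 10 arrays. NDUFA4, first assigned to complex I and now placed in cytochrome c oxidase, is described with complex IV. The set then held 35 genes of complex I, 5 of complex II, 2 of complex III, 9 of complex IV and 14 of complex V. Of these, 60 were counted as subunits, the coupling factor ATP5S among them, and 5 as assembly factors.

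The respiratory chain of the inner mitochondrial membrane passes electrons from NADH (through complex I) and from succinate (through complex II) to coenzyme Q, on to cytochrome c through complex III, and to oxygen through complex IV. Complexes I, III and IV pump protons as they do so, and complex V uses the return of those protons to make ATP. Most subunits are encoded in the nucleus and assembled with a few subunits encoded by mitochondrial DNA, and fibroblasts in culture commonly draw on both this pathway and glycolysis.

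The SSEA1+ fraction and the SSEA1- fraction were separated with magnetic beads and an anti-SSEA-1 (Lewis X) antibody, with 5 arrays each. The fibroblasts of both fractions came from Danish Landrace/Yorkshire x Duroc crosses at fetal day 24, from fetal tissue without the head, and had been grown in DMEM with fetal calf serum and antibiotics on gelatin. Total RNA was labelled as biotinylated cRNA and hybridised to Affymetrix porcine arrays, and the deposited values are log2 signals. The series text calls the replicates biological, but whether they came from separate fetuses or from separate cultures of a single line is not given, so the p-values below measure the spread between these samples. In bulk RNA, fewer cells of a type and less RNA per cell cannot be told apart.

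Array medians ran from 1.16 to 1.19 in the SSEA1+ fraction and from 1.15 to 1.19 in the SSEA1- fraction, and precision is limited by having 5 arrays a fraction. All 65 genes lay above the background level of 0.352 on all 10 arrays. The poly-A spike-in controls, read relative to the hybridisation controls, lay between -3.45 and -2.66 on the log2 scale in the SSEA1+ fraction and between -4.32 and -3.80 in the SSEA1- fraction, without overlap. The gap between 3′ and 5′ control probe sets also stood apart for EF1A, at 0.248 to 0.463 in the SSEA1+ fraction and 0.207 to 0.241 in the SSEA1- fraction, while those for actin and GAPDH overlapped. Of the fibroblast markers, 10 of 13 were measured and all 10 lay above background. COL1A2, a fibrillar collagen chain, was the 1 of them that passed in limma, 1.19 higher in SSEA1+ on the log2 scale. VIM, an intermediate filament protein of mesenchymal cells, averaged 11.25 ± 0.048 and 11.24 ± 0.022 in the SSEA1+ and SSEA1- fractions (SD, n = 5 each). No marker of epithelial, endothelial, blood, striated muscle, neural or cartilage cells passed the threshold in limma, where 4 of the 6 measured epithelial markers had an unadjusted p under 0.05, all higher in SSEA1+, and none of the others did. With the replicate block, 3 markers named here after their values were seen also passed: the epithelial keratin KRT19 (0.40, adjusted p = 0.0272) and the fibroblast surface protein THY1 (0.34, adjusted p = 0.0146) were higher, and the matrix protein POSTN (-0.59, adjusted p = 0.000737) was lower. Their part in the values of the chain genes was not tested. The mean over the epithelial list was 1.47 to 1.97 in SSEA1+ and 1.29 to 1.99 in SSEA1-.

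The comparison asked whether the chain differed in expression between the sorted fractions. None of the 65 genes reached an adjusted p of 0.05 in limma (Benjamini-Hochberg over all probe sets), and 8 had an unadjusted p under 0.05, 7 of them higher and 1 lower in the SSEA1+ fraction. Among all 6765 genes, 500 passed, or 7.39%, with 217 (3.21%) higher and 283 (4.18%) lower in SSEA1+ (273 and 219 after repeated quantile normalization), and 23.8% had an unadjusted p under 0.05. Where the replicate number was entered as a block, 3 of the 65 passed: NDUFA3 and NDUFS6 were higher and NDUFS1 was lower in SSEA1+, all of complex I. The same fit called 965 genes, or 14.3%, with 5.65% higher and 8.62% lower.

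The differences of the chain genes were small. They ran from -0.28 for NDUFS1 to 0.27 for NDUFS6 on the log2 scale, SSEA1+ minus SSEA1-, which is at most 1.21-fold in either direction. No chain gene reached 1.25-fold, a size that 723 of all 6765 genes exceeded. The median size of the difference was 0.077, or 1.05-fold, against 0.107, or 1.08-fold, over all genes. The 95% interval of the difference, taken gene by gene, stayed within 1.5-fold for 65 of the 65 genes and within 1.25-fold for 56 of them (86.2%). Over all genes these shares were 90.0% and 53.8%. The bound farthest from 0 among the chain genes was 0.474, or 1.39-fold, for NDUFS1. Within a fraction the arrays also lay close together: the median SD was 0.0996 for the 55 chain genes with a mean log2 signal over 5, against 0.117 for the 2005 genes of that brightness.

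In sign, 45 of the 65 genes were higher and 20 were lower in SSEA1+, with a median difference of 0.047 against -0.0085 over all genes. By complex, the medians were 0.047 for complex I, 0.044 for complex II, 0.138 for complex III, 0.089 for complex IV and 0.024 for complex V, and all 9 genes of complex IV were positive. Differences between complexes were not tested. With the poly-A level as a covariate the median of the 65 genes was -0.031, with 26 higher and 39 lower, and 6 of the 9 complex IV genes were positive. That level lay in separate ranges in the fractions, so its part and that of the fraction cannot be told apart.

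**Figure D1:**
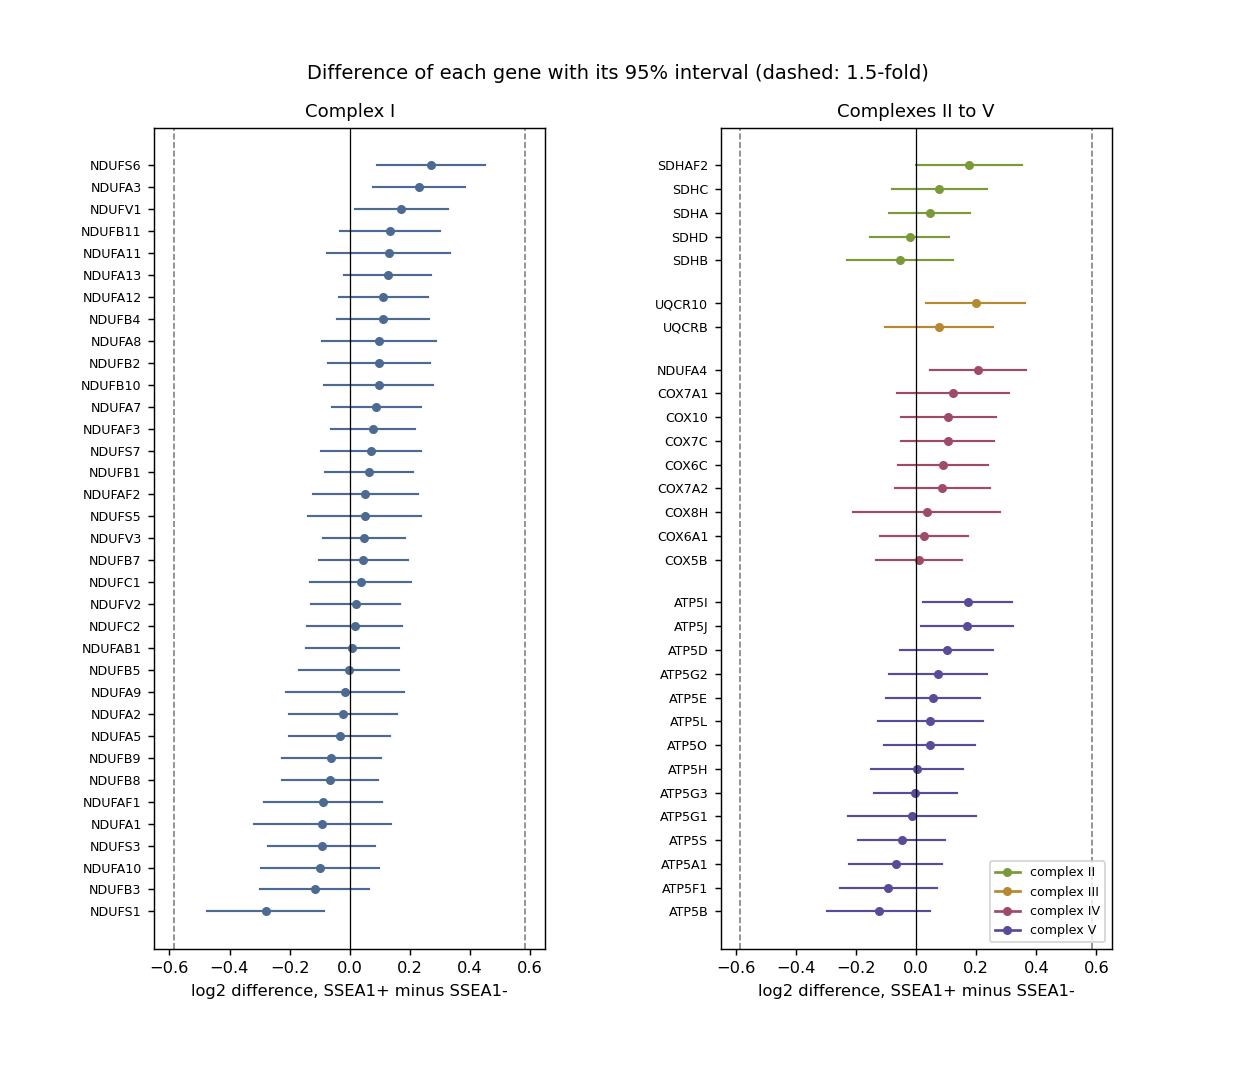
Log2 difference, SSEA1+ minus SSEA1-, of each of the 65 genes (points) with its 95% interval from limma (bars), grouped by complex and ordered by size; dashed lines mark 1.5-fold. All intervals lie inside the dashed lines, and the points run from -0.28 (NDUFS1) to 0.27 (NDUFS6).

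Complex I takes electrons from NADH at the tip of its matrix arm, in the N module. NDUFS6, a zinc-binding accessory subunit of that module, read 4.71, 4.57, 4.88, 4.68 and 4.79 on the SSEA1+ arrays of replicates 1 to 5, against 4.38, 4.30, 4.58, 4.61 and 4.40 on the SSEA1- arrays. It was higher in SSEA1+ in all 5 replicates, but SSEA1- replicates 3 and 4 reached the level of the lowest SSEA1+ array. The means were 4.73 ± 0.12 and 4.45 ± 0.135 in SSEA1+ and SSEA1- (SD, n = 5 each), a difference of 0.27 ± 0.083 (SE). Its adjusted p in limma was 0.0729, and 0.0321 when the block was fitted. With the poly-A covariate the difference was 0.042. The other probe set of NDUFS6 was above background on 1 array only.

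NDUFS1, the largest iron-sulphur subunit of the same module, ran the other way. It read 5.38, 5.02, 5.03, 5.34 and 5.31 on the SSEA1+ arrays, against 5.55, 5.35, 5.42, 5.58 and 5.57 on the SSEA1- arrays. It was lower in SSEA1+ in all 5 replicates, while the ranges overlapped between SSEA1+ replicate 1 and SSEA1- replicate 2. Replicates 2 and 3 read low in both fractions. The means were 5.22 ± 0.18 and 5.50 ± 0.10 in SSEA1+ and SSEA1- (SD, n = 5 each). The difference was -0.28 ± 0.090 (SE), with an adjusted p of 0.0891 in limma and 0.0220 under the block, where its SE was 0.066. With the poly-A covariate it was -0.18.

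The N module held 8 measured genes, 6 higher and 2 lower in sign, with a median of 0.068. NDUFV1, the flavin-binding subunit that oxidises NADH, averaged 5.51 ± 0.11 in SSEA1+ and 5.34 ± 0.072 in SSEA1- (SD, n = 5 each), a difference of 0.17 with an adjusted p of 0.200. NDUFV2, the iron-sulphur subunit bound to NDUFV1, differed by 0.020 and was lower in SSEA1+ in 4 of 5 replicates, and the brighter of its other probe sets by 0.235 with an adjusted p of 0.125. The accessory subunits NDUFA12, NDUFA7 and NDUFV3 differed by 0.11, 0.089 and 0.047, and NDUFA2 by -0.022. NDUFV3 was dim, averaging 1.56 in SSEA1+ and 1.51 in SSEA1-, and its SSEA1+ array of replicate 3 (1.71) stood above all its other arrays.

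The Q module hands electrons to coenzyme Q at the base of the matrix arm. Of its 4 measured genes, 3 were negative and the median was -0.024. NDUFS3, a core subunit, differed by -0.093, the accessory subunits NDUFA5 and NDUFA9 by -0.033 and -0.015, and NDUFS7, whose iron-sulphur cluster lies next to the quinone site, by 0.071. Each of these differences had an adjusted p of at least 0.600 in limma.

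The membrane arm pumps protons, and its measured genes encode nuclear accessory subunits. NDUFA3, of the part next to the matrix arm, read 6.65, 6.63, 6.63, 6.87 and 6.73 on the SSEA1+ arrays of replicates 1 to 5, against 6.43, 6.47, 6.42, 6.60 and 6.43 on the SSEA1- arrays. All SSEA1+ arrays lay above all SSEA1- arrays, although the SSEA1- array of replicate 4 came within a few hundredths of the lowest SSEA1+ array. NDUFA3 was the only chain gene whose fractions did not overlap, against 8.53% of all genes (3.96% with SSEA1+ above). Its means were 6.70 ± 0.10 and 6.47 ± 0.077 in SSEA1+ and SSEA1- (SD, n = 5 each). The difference was 0.23 ± 0.071 (SE) with an adjusted p of 0.0753 in limma. Under the block it was 0.0423, and with array weights 0.0405, in a fit that called 10.2% of all genes, 4.26% as higher. With the poly-A covariate it was 0.28.

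Of the 9 genes of the proximal membrane arm, 7 were positive, with a median of 0.050. After NDUFA3 came NDUFA11 (0.13), NDUFA13 (0.13), NDUFA8 (0.098), NDUFS5 (0.050), NDUFC1 (0.036) and NDUFC2 (0.017), while NDUFA1 and NDUFA10 were at -0.092 and -0.098. The second probe set of NDUFA1, also bright, gave 0.023. The distal membrane arm held 10 genes, 6 positive and 4 negative, with a median of 0.055. Its positive genes were NDUFB11 (0.135), NDUFB4 (0.11), NDUFB2 (0.097), NDUFB10 (0.096), NDUFB1 (0.065) and NDUFB7 (0.046). NDUFB3 was lower in SSEA1+ in all 5 replicates, at 6.59 ± 0.098 in SSEA1+ and 6.70 ± 0.15 in SSEA1- (SD, n = 5 each), a difference of -0.12 with an adjusted p of 0.505. Its second probe set gave -0.19 with an adjusted p of 0.173. NDUFB8, NDUFB9 and NDUFB5 differed by -0.065, -0.061 and -0.0013.

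NDUFAB1, the mitochondrial acyl carrier protein that is also a structural subunit of complex I, differed by 0.0090. The complex I assembly factors, which act while the enzyme is built and then leave it, differed by -0.089 for NDUFAF1, 0.052 for NDUFAF2 and 0.079 for NDUFAF3. None of the 4 had an unadjusted p under 0.05.

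**Figure D2:**
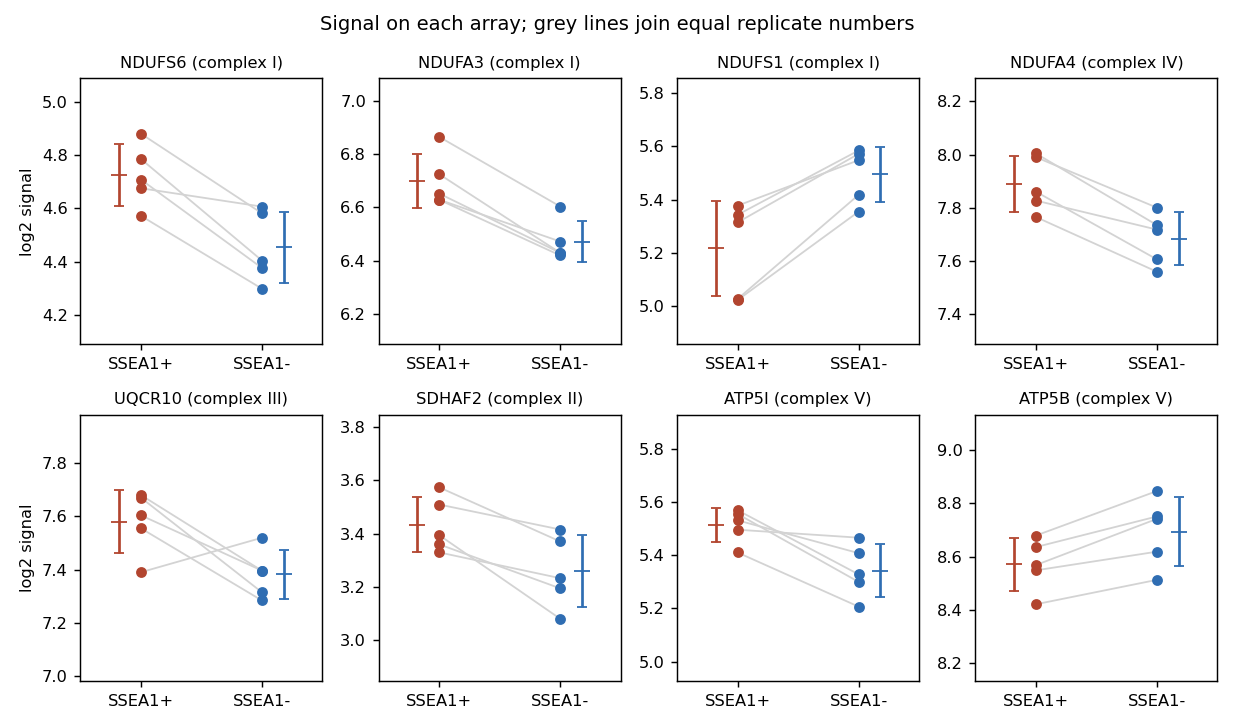
Log2 signal on each array for 8 genes, with SSEA1+ arrays in red on the left and SSEA1- arrays in blue on the right of each panel; grey lines join equal replicate numbers and bars give the mean ± SD (n = 5 each). NDUFA3 is the gene without overlap, NDUFS1 and ATP5B are lower in SSEA1+ in all 5 replicates, and UQCR10 crosses in replicate 4.

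Complex II, succinate dehydrogenase, is the enzyme that belongs both to the tricarboxylic acid cycle and to the chain. Its flavoprotein SDHA differed by 0.044, its membrane anchors SDHC and SDHD by 0.077 and -0.021, and none of the 5 genes had an unadjusted p under 0.05. SDHAF2, the factor that helps attach the flavin to SDHA, was at the top of this group. It read 3.36, 3.33, 3.57, 3.51 and 3.39 on the SSEA1+ arrays, against 3.19, 3.23, 3.37, 3.42 and 3.08 on the SSEA1- arrays. It was higher in SSEA1+ in all 5 replicates, with overlap because SSEA1- replicates 3 and 4 lay among the SSEA1+ arrays, and the difference was 0.175 ± 0.081 (SE) with an adjusted p of 0.253 in limma. The iron-sulphur subunit SDHB was lowest, with 7.41, 7.11, 7.34, 7.49 and 7.38 in SSEA1+ against 7.42, 7.26, 7.37, 7.45 and 7.49 in SSEA1-. These ranges overlapped almost wholly, and the difference was -0.055 with an adjusted p of 0.790. A second, dimmer probe set of SDHB gave -0.28 with an adjusted p of 0.172, so the probe sets differed in size but not in sign.

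Complex III, which passes electrons from coenzyme Q to cytochrome c, was represented by 2 accessory subunits. UQCR10 read 7.68, 7.60, 7.67, 7.39 and 7.56 on the SSEA1+ arrays, against 7.40, 7.40, 7.31, 7.52 and 7.28 on the SSEA1- arrays. It was higher in SSEA1+ in 4 of 5 replicates, and replicate 4 had the lowest SSEA1+ array together with the highest SSEA1- array. The difference was 0.20 ± 0.076 (SE) with an adjusted p of 0.158 in limma. Without replicate 4 it was 0.28 with an adjusted p of 0.0389, in a fit that called 6.96% of all genes, 3.02% as higher. UQCRB, a quinone-binding subunit, read 7.57, 7.31, 7.62, 7.44 and 7.50 in SSEA1+ against 7.42, 7.22, 7.38, 7.57 and 7.48 in SSEA1-. Its fractions overlapped, again with the order turned in replicate 4, and the difference was 0.077 ± 0.083 (SE) with an adjusted p of 0.685.

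Complex IV, cytochrome c oxidase, reduces oxygen to water. All 9 of its genes were positive, from 0.010 to 0.21, and none passed in limma, with 1 at an unadjusted p under 0.05. That gene was NDUFA4, with 8.00, 7.77, 7.86, 7.83 and 7.99 on the SSEA1+ arrays against 7.73, 7.56, 7.61, 7.72 and 7.80 on the SSEA1- arrays. It was higher in SSEA1+ in all 5 replicates, and the ranges met only at the lowest SSEA1+ array and the highest SSEA1- array. The means were 7.89 ± 0.10 and 7.68 ± 0.099 in SSEA1+ and SSEA1- (SD, n = 5 each), a difference of 0.21 ± 0.075 (SE) with an adjusted p of 0.133 in limma.

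The other ubiquitously used subunits of cytochrome c oxidase lay closer to 0. COX7C, COX6C and COX7A2 differed by 0.10, 0.089 and 0.086, and COX6A1 by 0.027. COX5B read 8.56, 8.46, 8.47, 8.43 and 8.46 in SSEA1+ against 8.47, 8.36, 8.40, 8.58 and 8.52 in SSEA1-. It was higher in SSEA1+ in 3 replicates and lower in 2, for a difference of 0.010 with a 95% interval of -0.13 to 0.15. COX10, which makes the haem A precursor of this enzyme, differed by 0.11 with an adjusted p of 0.480, and was lower in SSEA1+ in 3 of 5 replicates.

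COX7A1 and COX8H, the isoforms used in heart and skeletal muscle, gave dim signals above background. COX7A1 averaged 1.56 ± 0.11 in SSEA1+ and 1.44 ± 0.16 in SSEA1-, and COX8H averaged 1.33 ± 0.084 in SSEA1+ and 1.29 ± 0.27 in SSEA1- (SD, n = 5 each). Their adjusted p-values in limma were 0.495 and 0.918. Of the 7 striated muscle markers measured, 5 had a mean above background and DES, MYL1 and ACTC1 lay above it on all arrays, and the mean over the list was 2.73 to 2.89 in SSEA1+ and 2.54 to 2.75 in SSEA1-. The muscle regulator MYOD1 averaged 0.416 ± 0.18 in SSEA1+ and 0.325 ± 0.13 in SSEA1- (SD, n = 5 each), above background on 6 of 10 arrays. MYF5, a further muscle regulator, averaged 0.555 ± 0.20 in SSEA1+ and 0.564 ± 0.22 in SSEA1- (SD, n = 5 each), above background on 8 of 10 arrays. The part of these markers in the isoforms' values was not tested.

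Complex V joins a membrane rotor of c subunits to a catalytic head by a central and a peripheral stalk. Of its 14 genes, 8 were positive and 6 negative in sign, and none passed in limma, with ATP5I and ATP5J at an unadjusted p under 0.05. ATP5B, the catalytic beta subunit, read 8.68, 8.42, 8.55, 8.57 and 8.64 on the SSEA1+ arrays, against 8.85, 8.51, 8.62, 8.74 and 8.75 on the SSEA1- arrays. It was lower in SSEA1+ in all 5 replicates with overlapping ranges, and replicate 2 was the lowest in both fractions. The difference was -0.12 ± 0.079 (SE) with an adjusted p of 0.439. ATP5A1, the alpha subunit of the same head, differed by -0.068, whereas ATP5D and ATP5E, the small subunits that join the head to the rotor, differed by 0.10 and 0.057.

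ATP5I, subunit e of the membrane part, read 5.53, 5.41, 5.56, 5.50 and 5.57 in SSEA1+ against 5.41, 5.21, 5.30, 5.47 and 5.33 in SSEA1-. It was higher in SSEA1+ in all 5 replicates, and the fractions overlapped through SSEA1- replicate 4. The difference was 0.17 ± 0.069 (SE) with an adjusted p of 0.183 in limma. ATP5L, subunit g and the neighbour of ATP5I in the enzyme, differed by 0.047, while a dim probe set of it gave -0.29 with an adjusted p of 0.132. The 3 genes for the c subunit of the rotor, ATP5G1, ATP5G2 and ATP5G3, encode the same mature protein in humans and differed by -0.013, 0.073 and -0.0030.

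The peripheral stalk, which keeps the head from turning with the rotor, held both signs. ATP5J (subunit F6) averaged 7.50 ± 0.11 in SSEA1+ and 7.34 ± 0.073 in SSEA1- (SD, n = 5 each), a difference of 0.17 with an adjusted p of 0.203. ATP5O and ATP5H differed by 0.045 and 0.0018, and ATP5F1 (subunit b) by -0.093. ATP5S, coupling factor B, was counted with this stalk here and differed by -0.048.

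For 16 of the 65 genes the array held 19 further probe sets, of which 14 were above background on all arrays. Of these 14, 8 had the sign of the probe set used. None of the 19 passed in limma with or without the replicate block, and 5 had an unadjusted p under 0.05.

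Many chain genes deviated in the same direction on the same array. On SSEA1- replicate 4, 59 of the 65 genes were above their fraction mean, and on SSEA1+ replicate 1, 54 were. On SSEA1- replicate 2 and SSEA1+ replicate 2, 11 and 13 were. The median deviation of the 65 genes from their 10-array means was 0.094, -0.037, 0.066, -0.012 and 0.027 on the SSEA1+ arrays of replicates 1 to 5, against -0.019, -0.120, -0.051, 0.067 and 0.0095 on the SSEA1- arrays. The 2 fractions overlapped in this measure. Over all genes the same median lay between -0.016 and 0.0029 on the SSEA1+ arrays and between -0.017 and 0.033 on the SSEA1- arrays.

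**Figure D3:**
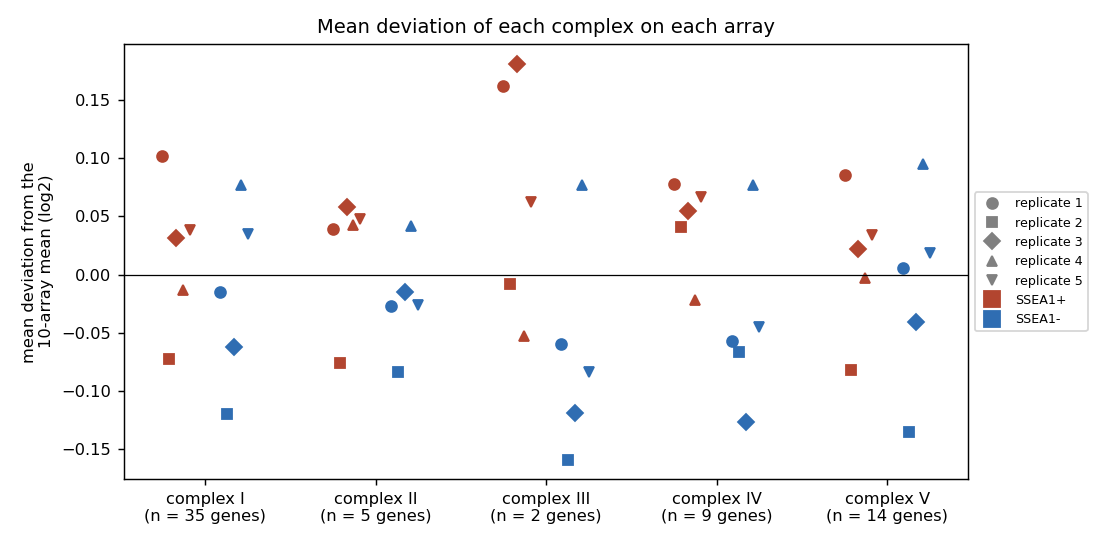
Mean deviation of the genes of each complex from their 10-array means (log2) on each array, with SSEA1+ arrays in red and SSEA1- arrays in blue and a symbol for each replicate number. SSEA1- replicate 4 is the highest SSEA1- array in every complex, replicate 2 lies low in both fractions for complexes I, II and V, and the fractions overlap in all 5 complexes.

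Within replicates the order of the fractions was not constant. The median difference of the 65 genes was 0.133 in replicate 1, 0.074 in replicate 2, 0.140 in replicate 3, -0.100 in replicate 4 and 0.017 in replicate 5. In replicates 1 and 3, 53 of the 65 genes were higher in SSEA1+, in replicate 2 it was 48, in replicate 5 it was 36, and in replicate 4 it was 16, with 47 lower and 2 equal. Over all genes the median in replicate 4 was -0.048, and in the other replicates it lay between -0.011 and 0. The mean difference in replicate 4 was negative for complexes I, III, IV and V and 0.00035 for complex II. The median over the 65 genes was 0.077 without replicate 4 and 0.029 without replicate 1. Leaving out a single array moved it by over 1.5 times in 3 cases, to 0.074 without SSEA1- replicate 4, 0.029 without SSEA1- replicate 2 and 0.031 without SSEA1+ replicate 1.

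**Figure D4:**
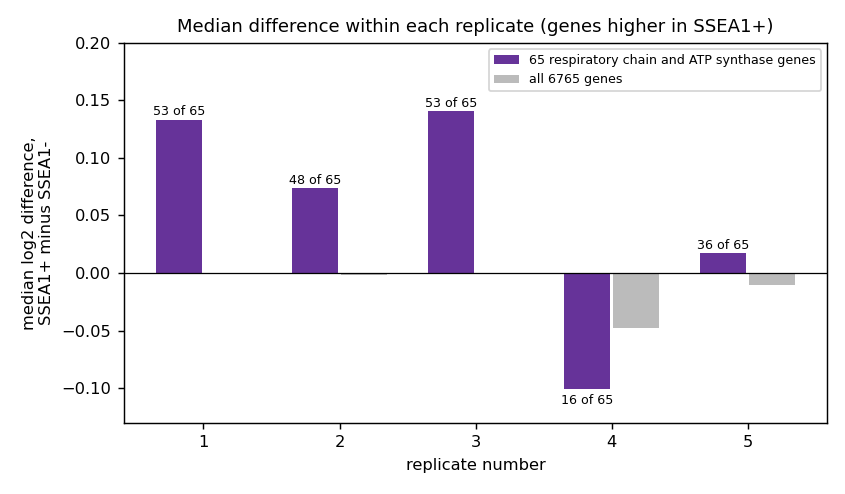
Median log2 difference, SSEA1+ minus SSEA1-, within each replicate number for the 65 chain genes (purple) and all 6765 genes (grey), with the number of chain genes higher in SSEA1+ above or below each bar. The chain genes are positive in replicates 1, 2, 3 and 5 and at -0.100 in replicate 4.

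Genes around the chain were read from lists of the same fit. Of 12 further chain genes, most of them encoded by mitochondrial DNA, only CYCS was measured under a single symbol. CYCS, cytochrome c, which carries electrons to complex IV, averaged 6.06 ± 0.11 in SSEA1+ and 6.33 ± 0.17 in SSEA1- (SD, n = 5 each), a difference of -0.27 ± 0.090 (SE) with an adjusted p of 0.0976. Of 42 other assembly factors, 16 were measured, 1 passed and was lower, against 7.39% of all genes passing, and the median was -0.068. That gene was ATPAF1, a chaperone for the beta subunit of ATP synthase, which fell by 0.34 ± 0.082 (SE), with 3.49 ± 0.16 in SSEA1+ and 3.84 ± 0.057 in SSEA1- (SD, n = 5 each) and an adjusted p of 0.0267. Its fractions did not overlap, as for 8.53% of all genes. SLIRP, which stabilises mitochondrial messenger RNA, differed by -0.19 with an adjusted p of 0.0812.

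Some enzymes that feed the chain did pass. Of 17 measured genes of the tricarboxylic acid cycle and pyruvate metabolism, 3 passed, all higher, while the median was -0.061. Over all genes 7.39% passed, 3.21% as higher and 4.18% as lower. Under the block DLD, the dehydrogenase subunit shared by the pyruvate and 2-oxoglutarate complexes and named here after its values were seen, passed as well and was lower (-0.25, adjusted p = 0.0378, against 0.0721 without the block). PC, pyruvate carboxylase, which makes oxaloacetate, rose by 0.40 ± 0.090 (SE), with 2.13 ± 0.16 in SSEA1+ and 1.73 ± 0.13 in SSEA1- (SD, n = 5 each) and an adjusted p of 0.0210. OGDH, a subunit of the 2-oxoglutarate dehydrogenase complex, rose by 0.27 ± 0.065 (SE; adjusted p = 0.0306), and CS, citrate synthase, by 0.29 ± 0.079 (SE; adjusted p = 0.0447). The genes of succinate dehydrogenase, the step of the cycle in the membrane, were not called, as for most measured genes of the cycle. A difference between these genes and the called ones was not tested. Of 10 measured genes for other quinone-reducing enzymes and for coenzyme Q synthesis, 1 passed, and the median was -0.148. COQ9, which is needed to make coenzyme Q, fell by 0.27 ± 0.071 (SE; adjusted p = 0.0431), and ETFA, which passes electrons from fatty acid oxidation, differed by -0.26 with an adjusted p of 0.0858 (0.0293 under the block and 0.0434 without SSEA1- replicate 2). The adjusted p of ETFA was 0.0721 with array weights, 0.106 after repeated quantile normalization, 0.107 without replicate 4 and 0.618 with the poly-A covariate.

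None of these 5 calls held in every fit that left out a single array. Such fits have fewer arrays. Over all omissions of an array or a replicate number, 115 to 663 of all genes were called, against 500 with all arrays. Without SSEA1- replicate 3 none of the 5 held, with adjusted p-values of 0.0732 for ATPAF1, 0.0574 for PC, 0.0709 for OGDH, 0.0956 for CS and 0.107 for COQ9. The call of ATPAF1 also ended without SSEA1- replicate 4 or 5 or SSEA1+ replicate 3 or 5, at 0.0538 to 0.0613, and that of OGDH without SSEA1- replicate 1, 4 or 5 or SSEA1+ replicate 1, 2 or 5, at 0.0528 to 0.0724. CS lost its call without SSEA1- replicate 2, 4 or 5 or SSEA1+ replicate 1, 3, 4 or 5, at 0.0738 to 0.102, and COQ9 without SSEA1- replicate 1, 4 or 5 or SSEA1+ replicate 1, 2, 3 or 5, at 0.0544 to 0.0963. With replicate 4 left out of both fractions, ATPAF1 (0.0577), CS (0.131) and COQ9 (0.0723) lost their calls, while PC (0.0450) and OGDH (0.0439) kept theirs. After repeated quantile normalization COQ9 lost its call (0.0635), and the others kept theirs at 0.0120 to 0.0478. With the poly-A covariate all 5 calls ended, at adjusted p-values of 0.184 to 0.510, in a fit that called 6 of all 6765 genes. The differences there were 0.59 for PC, 0.33 for OGDH, 0.28 for CS, -0.39 for ATPAF1 and -0.35 for COQ9. Their signs were kept and their SEs were larger.

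Over all 6765 genes 23.8% had an unadjusted p under 0.05 in limma, 695 of them higher and 915 lower. None of the 8 measured genes for mitochondrial biogenesis passed in limma, and 3 were under 0.05 before adjustment, all lower. They included TFAM, which packages and transcribes mitochondrial DNA (-0.20, adjusted p = 0.142), and MTERF3, a regulator of mitochondrial transcription (-0.20, adjusted p = 0.133). None of the 20 glycolytic genes passed in limma, and 3 were under 0.05 before adjustment. SLC2A1, the main glucose transporter of fibroblasts, averaged 5.02 ± 0.16 in SSEA1+ and 4.62 ± 0.24 in SSEA1- (SD, n = 5 each), a difference of 0.40 ± 0.11 (SE) with an adjusted p of 0.0561. Under the block its adjusted p was 0.00584, after repeated quantile normalization it was 0.0396, without SSEA1- replicate 2 it was 0.0125 and without SSEA1+ replicate 4 it was 0.0477. The adjusted p of SLC2A1 was 0.0886 without replicate 4, 0.497 with the poly-A covariate and 0.633 with that covariate and the block. LDHA, which turns pyruvate into lactate, differed by -0.27 with an adjusted p of 0.0684. None of the 14 antioxidant and uncoupling genes passed in limma, and 0 were under 0.05 before adjustment. CAT (catalase) and GSR (glutathione reductase), those of smallest p, differed by -0.19 and -0.15.

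**Figure D5:**
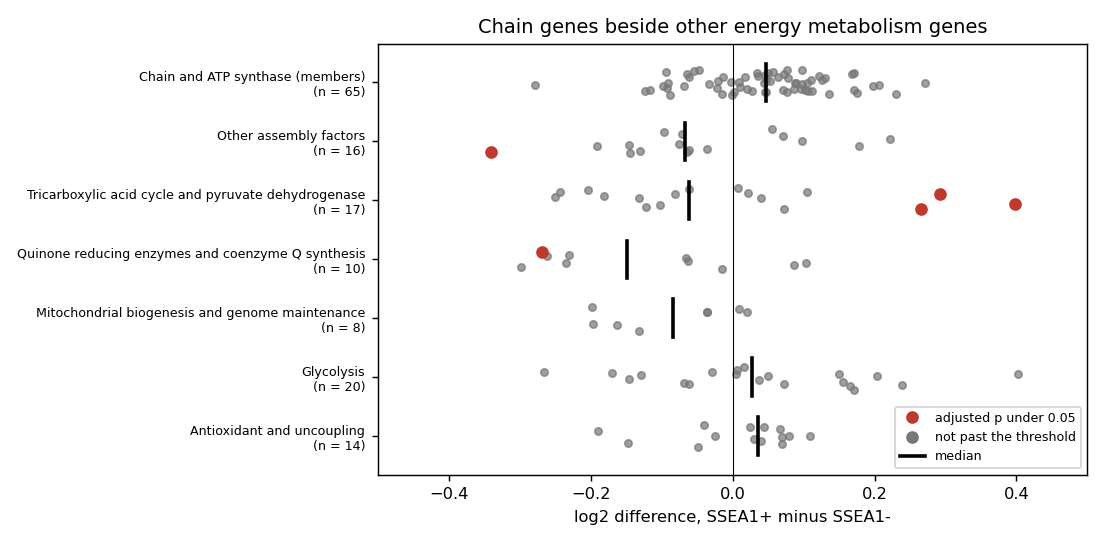
Log2 difference, SSEA1+ minus SSEA1-, of each measured gene of the chain and of 6 lists of energy metabolism genes; red points have an adjusted p under 0.05 in limma and black bars mark the median. No chain gene is red, and the red points are ATPAF1, PC, OGDH, CS and COQ9.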

How the data were processed

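The authors deposited log2 signals, 1 for each probe set of an Affymetrix porcine array, made with RMA per the submitters' processing notes; its version and settings are not given here. No further normalization was applied. Each of the 10 value columns was matched to a sample by its label. Probe sets were named through the platform annotation, whose symbols can be old, and their Entrez identifiers were looked up in a RefSeq table for names only: of 24123 probe sets, 10099 had 1 symbol and 198 had several. The rule took 84 probe sets for 65 genes, and 5 probe sets that paired a chain gene or a like symbol with another symbol were left out. Of the 65 genes, 4 were read from probe sets whose suffix marks probes shared between transcripts. The annotation names old symbols, such as ATP5B. The level that marks background is the 95th percentile over 23 controls for absent sequences.

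The difference between fractions was fitted by limma's lmFit and eBayes (limma 3.58.1, R 4.3.3) to every probe set, 188 controls among them, with Benjamini-Hochberg adjustment over the whole table and a threshold of 0.05. The procedure was tested on simulated data. No p-value was computed for the chain genes as a list.

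The chain genes, the lists around them and the tests were chosen with earlier results of these data known. Values on all 10 arrays are printed for genes past the threshold with or without the replicate block and, per complex, for the genes of highest and lowest difference. Of each list of genes around the chain, genes past the threshold and up to 2 of smallest p are named. Cell type markers were not held to that rule, and VIM and the striated muscle markers are named without having passed. No probe set had FUT4 or FUT9, enzymes that make the SSEA-1 epitope, as its only symbol.

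The main fit held the fraction alone and did not pair arrays by replicate number, which entered as a block only in alternative fits. After each fraction's mean was removed, the arrays that share a number had correlations of 0.212, 0.580, 0.353, 0.122 and 0.235 (replicates 1 to 5). Correlations between arrays of different numbers are not given here. The alternatives were the replicate block, array weights, eBayes with trend and robust settings, median centring, quantile and cyclic loess normalization, a filter on level, averaging all probe sets of a gene, the poly-A level as a covariate with and without the block, and leaving out each array or replicate number.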

Additional observations from a re-analysis of the deposited data

Results flagged for a closer look

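Of 130 sets of 5 arrays (65 genes in each of the 2 fractions), 6 held an array that stood apart from the other 4 by Dixon's test at the 95% level, and chance gives about 1 in 20, or 6.5. NDUFV3, a small accessory subunit of complex I, read 1.71 on SSEA1+ replicate 3 against 1.52 to 1.53 on the other SSEA1+ arrays. COX7C read 9.20 on SSEA1+ replicate 4 against 9.40 to 9.43, and ATP5G1 read 7.14 on SSEA1+ replicate 2 against 7.37 to 7.45. In the SSEA1- fraction, NDUFB3 read 6.98 on replicate 5 against 6.60 to 6.66, NDUFA3 read 6.60 on replicate 4 against 6.42 to 6.47, and NDUFAF3 read 4.05 on replicate 3 against 4.19 to 4.24.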

How the results depend on the processing

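No chain gene passed in limma in the fit without a block, and 1 passed with array weights, 3 with the replicate block and 0 to 1 when an array or a replicate number was left out. The block changed no other call among the chain genes. The median difference of the 65 genes was 0.029 to 0.077 over these omissions, -0.031 with the poly-A covariate and -0.142 with that covariate and the block, where 16 genes were higher and 49 lower. With the covariate 64 of the 65 intervals stayed within 1.5-fold and 10 within 1.25-fold, and with the block beside it 22 and 0. The number of all genes called was 500, against 965 with the replicate block, 6 with the poly-A covariate, 1 with both, and 115 to 663 over the omissions, the lowest without replicate 5, with 142 and 147 without replicates 3 and 1 and 268 to 333 without SSEA1- replicate 1, 3 or 5 or SSEA1+ replicate 1 or 5; repeated quantile normalization called 273 higher and 219 lower, and cyclic loess 273 and 224. Signs turned for genes near 0 or with the covariate: COX5B read -0.042 with the poly-A covariate, -0.174 with the block beside it, -0.017 and -0.0063 without SSEA1- replicates 2 and 3, -0.011 without SSEA1+ replicate 1, and -0.011, -0.012 and -0.0047 without replicates 1, 2 and 3, in a range of -0.017 to 0.051 over the omissions. SDHB read 0.049 with both and 0.0053 without SSEA1+ replicate 2 (-0.092 to 0.0053 over the omissions), SDHAF2 -0.046 with the covariate, UQCRB -0.131 with it and -0.238 with both, UQCR10 -0.231 with both and ATP5I -0.064 with both. The cause was not tested. Over 25 genes and 25 alternatives, 528 of 625 values kept their sign and side of the threshold, 63 lost the call, 19 gained it and 15 turned. Among the 25 genes only ATPAF1, PC, OGDH, CS and COQ9 were called in the main fit, so all 63 losses fell on them. The other genes had no call to lose, and the pooled count does not measure how firm those calls were.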
